A study of Mus musculus with 18 samples.

Results

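The p53 targets that act in apoptosis were followed on the arrays as 9 genes, namely Bax, Bbc3, Pmaip1, Perp, Apaf1, Aen, Pidd1, Casp8 and Casp9. Their probes were those whose accession maps in RefSeq to one of these symbols, which gave 9 of the 19259 genes named on the array and 11 of its 37246 probes. Apaf1 (NM_009684 and NM_001042558) and Casp8 (NM_009812 and NM_001080126) each had 2 probes, and every other gene had 1. Expression was measured on Agilent one-color arrays in 6 groups of 3 samples each. ES were unirradiated mouse embryonic stem cells of early passage, isolated from blastocysts and grown with leukemia inhibitory factor (LIF) and without feeder cells. ED were unirradiated isogenic cells that differentiated from these ES cells, with no directing factor, once LIF was withdrawn. The labels give the differentiation as 1 week or until stem cell markers were lost, and the methods as at least 4 days. ESRE and EDRE were ES and ED cells collected 15 min after 10 Gy of ionizing radiation (IR), and ESRL and EDRL were collected 4 h after it. No source says that the samples of a group came from separate cultures, so the p-values measure the spread between these samples, which may be technical.

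The protein p53 is stabilized after DNA breaks and switches on genes of cell cycle arrest, repair and apoptosis. In the mitochondrial route its targets Bbc3 (PUMA) and Pmaip1 (NOXA) neutralize BCL2-type survival proteins, Bax opens the outer mitochondrial membrane, and Apaf1 joins released cytochrome c to activate caspase 9, the product of Casp9. Casp8 encodes the initiator caspase of death receptors, Pidd1 the scaffold that activates caspase 2 in the PIDDosome, Perp a membrane protein of cell junctions and apoptosis, and Aen a nuclease that digests DNA in dying cells. Mouse ES cells are known to die readily after DNA damage, and how they and their differentiated offspring each respond to IR is the question of the comparisons below.

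Each level is a log2 signal minus the log2 of the 75th percentile of signals on its array. Levels of different probes were not compared. This percentile was a signal between 2806 and 4268 on most arrays, but it was 875 for EDRE replicate 2, 1155 for EDRE replicate 3 and 1952 for ESRL replicate 1. In those EDRE samples 24.4% and 23.8% of the spots were marked as outliers, against 3.33% to 11.2% elsewhere. Of the 198 spots of the 11 probes over all arrays, 12 were marked as outliers and left out, 174 were well above background and 0 were saturated. The arrays carried 6 scan times, each treated as 1 slide, an inference since the methods describe slides of 1 array each. No slide held irradiated arrays together with their own unirradiated control, so scan time and IR cannot be told apart in these comparisons. The stem cell markers checked (8 genes, Pou5f1, Nanog and Zfp42 among them) were all detected on every array of ES, ESRE and ESRL, where their summed level was between 8.97 and 9.57. In ED, EDRE and EDRL that sum was between 4.02 and 5.03. There 7, 4 and 6 of the 8 genes were detected on all arrays of the group, and Zfp42 in none of these groups. The sum over 7 fibroblast markers was between 8.0 and 8.41 in the ED groups against 2.78 to 3.25 in the ES groups. All 7 were detected on every array of ES, and 6 in each ED group. Thy1 went the other way, detected on all arrays of each ES group and of no ED group. The 3 trophoblast markers Cdx2, Elf5 and Krt8 were detected on all arrays of the ES groups with a sum between 6.43 and 6.88. Neither Cdx2 nor Elf5 was detected on all arrays of any ED group, and the sum there was between -2.88 and -2.0. The sum of 3 mesoderm markers was between -0.64 and 0.10 in the ES groups and between -6.61 and -2.91 in the ED groups. In bulk samples, fewer cells of a type and less RNA per cell cannot be told apart.

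The promoters show where a p53 site near the start could be read. RefSeq promoter windows (GRCm38.p6), from 250 bases before to 50 bases after a transcript start, were used for 7 of the 9 genes. None was held for Perp, and any window of Pmaip1 was left out of the member counts, so its promoter was not examined. The windows were searched for the decameric p53 half-site, which is its own reverse complement, so that 1 search covers both strands. It was found in 3 of the 10 windows, those of Bax and Aen, 2 of the 7 genes, and in 8.36% of all 32851 windows of the same length. The window of Bax and 1 of the 2 matching windows of Aen are given with those of Apaf1 and Pidd1, which rose at 4 h in ED cells and hold none. Capitals mark the half-site, which begins 201 bases before the start in Bax and 121 bases before it in Aen. The other Aen window, of an earlier start, holds the same half-site 10 bases after that start. All are printed in the direction of the gene, Bax at chr7:45466849-45467148 (minus strand), Aen at chr7:78895808-78896107 (plus strand), Apaf1 at chr10:91082694-91082993 (minus strand) and Pidd1 at chr7:141443976-141444275 (minus strand). A match is a description of the letters, not evidence of binding.
Bax: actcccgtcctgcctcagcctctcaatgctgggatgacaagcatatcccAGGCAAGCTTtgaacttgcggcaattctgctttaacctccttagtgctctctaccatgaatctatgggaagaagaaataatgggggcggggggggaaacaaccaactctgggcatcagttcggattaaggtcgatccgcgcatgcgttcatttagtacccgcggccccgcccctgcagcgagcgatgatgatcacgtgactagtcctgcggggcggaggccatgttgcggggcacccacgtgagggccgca
Aen: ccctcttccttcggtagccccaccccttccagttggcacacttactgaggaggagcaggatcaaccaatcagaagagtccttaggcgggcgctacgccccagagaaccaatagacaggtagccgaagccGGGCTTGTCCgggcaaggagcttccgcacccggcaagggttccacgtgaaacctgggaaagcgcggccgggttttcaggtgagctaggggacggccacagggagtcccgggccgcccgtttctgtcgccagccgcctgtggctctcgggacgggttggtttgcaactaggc
Apaf1: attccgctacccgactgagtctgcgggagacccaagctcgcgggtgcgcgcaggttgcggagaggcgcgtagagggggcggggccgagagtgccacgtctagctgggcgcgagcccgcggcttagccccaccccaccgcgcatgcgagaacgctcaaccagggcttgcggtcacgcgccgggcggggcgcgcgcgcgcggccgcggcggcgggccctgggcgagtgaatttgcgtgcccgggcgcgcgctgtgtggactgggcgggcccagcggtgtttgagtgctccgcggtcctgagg
Pidd1: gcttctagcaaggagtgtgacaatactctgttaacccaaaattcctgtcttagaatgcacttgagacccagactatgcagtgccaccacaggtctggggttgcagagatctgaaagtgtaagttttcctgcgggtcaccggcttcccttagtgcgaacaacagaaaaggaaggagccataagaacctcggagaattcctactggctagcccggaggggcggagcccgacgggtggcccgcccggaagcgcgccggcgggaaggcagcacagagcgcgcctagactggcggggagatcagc

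A gene was called where at least 1 of its probes had an adjusted p under 0.05 in a limma fit of all 18 arrays, adjusted over every probe tested on the array. At 15 min after IR, 0 of the 8 genes tested were called in ESRE against ES, where 0.563% of all probes were called, and 0 had an unadjusted p under 0.05. In EDRE against ED, 1 of 7 was called, Bax, which was higher (7.39% of all probes called, 3.76% as higher). At 4 h, 1 of 8 was called in ESRL against ES, Apaf1, which was higher (8.88% of all probes called, 1.75% as higher). In EDRL against ED, 3 of 7 were called, Apaf1, Perp and Pidd1, all higher (2.39% of all probes called, 1.74% as higher). The median change over the genes tested, each by its probe with the smallest p, was 0.86 in EDRL against ED, beside a median of -0.09 over all probes tested, and 0.54 in ESRL against ES, beside -0.16. At 15 min it was 0.27 in EDRE and 0.01 in ESRE, beside 0.03 and -0.08. In ESRL against ES, Casp8 entered by the probe with a difference of 0.81, while its other probe differed by 0.03. Pmaip1 and Pidd1 each had 1 ES array there. The comparisons with ES share the ES arrays and those with ED the ED arrays.

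**Figure D1:**
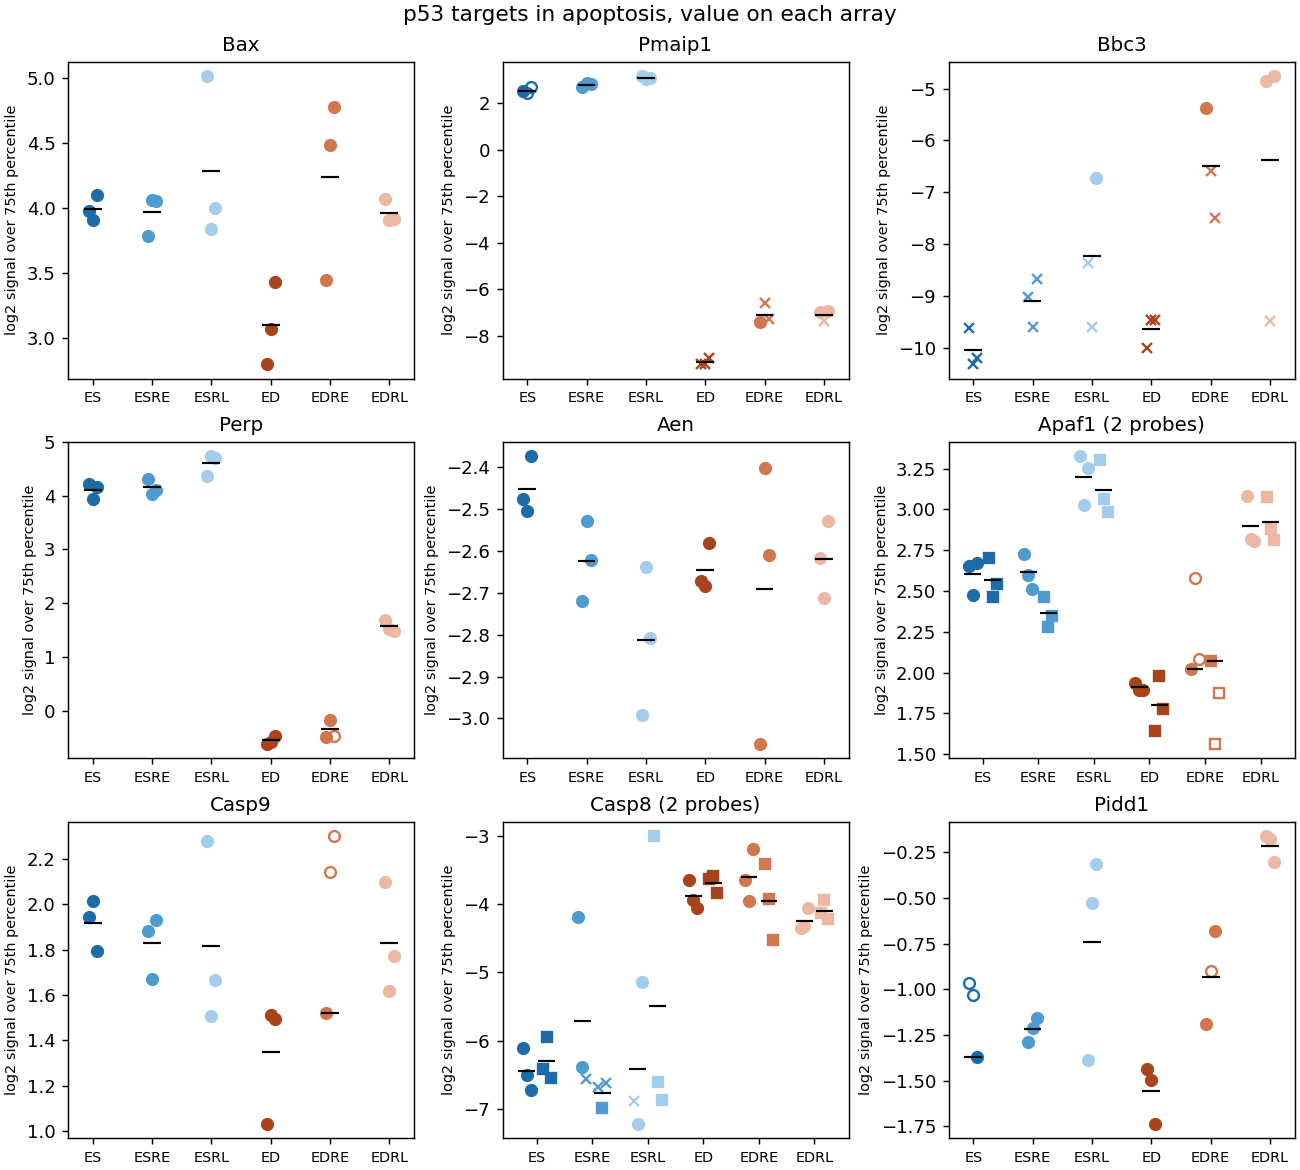
Level of each of the 9 genes on each array (vertical axis, log2 signal over the array's 75th percentile) in the 6 groups. Points are arrays, bars are group means without outlier spots, open points are outlier spots, crosses are spots not well above background, and circles and squares tell the 2 probes of Apaf1 and of Casp8 apart. Perp, Apaf1 and Pidd1 lie higher in EDRL than in ED on every array, and Pmaip1 lies near the background in all ED groups.

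Perp, the membrane protein gene, had the largest called change after IR among the 9 genes. Its level was 4.22, 3.94 and 4.16 in ES, 4.31, 4.04 and 4.11 in ESRE, and 4.37, 4.74 and 4.71 in ESRL. In ED it was -0.62, -0.58 and -0.47, in EDRE -0.49 and -0.18, with an outlier spot on the third array, and in EDRL 1.69, 1.53 and 1.48. The arrays of EDRL lay above every ED and EDRE array and below every ES array. Against ED, 14.8% of all probes measured on every array lay higher in EDRL without overlap. Perp rose in EDRL against ED by 2.12 on the log2 scale (SE 0.15, 3 arrays against 3), or 4.36-fold, with an adjusted p of 3.13e-06. It was also higher in EDRL than in EDRE, by 1.90 (SE 0.17, adjusted p 3.18e-05). In ESRL against ES the difference was 0.50, with a 95% confidence interval from 0.16 to 0.83 and an adjusted p of 0.0631, and all ESRL arrays lay above all ES arrays, as did those of 10.4% of all probes measured on every array. The difference passed the threshold without replicate 1 of ESRL, the array with the low percentile (0.61, adjusted p 0.0344), with median scaling (0.81, adjusted p 0.0097), in the authors' table (0.81, adjusted p 0.0166), and without EDRE replicate 1 or 2 or without EDRE replicates 2 and 3, which leave the difference at 0.50 (adjusted p 0.0287 to 0.0498). The change at 4 h was larger in ED than in ES cells by 1.62 (SE 0.22, interval 1.15 to 2.10, adjusted p 0.00343 for the interaction of IR and cell type), and 1.1% of all probes were called in this interaction, 0.853% in this direction. Perp was 1 of the 8 genes tested there and the only one called, and with slide as a random block the interaction was 1.77 with an adjusted p of 0.452. In the order of the group means, ESRL came before ESRE, ES, EDRL, EDRE and ED, where ES and EDRL were not compared. Among the neighbours compared, EDRL and EDRE differed past the threshold, as given above. The others did not, with ESRL and ESRE (0.45, adjusted p 0.0999), ESRE and ES (0.05, interval -0.29 to 0.38) and EDRE and ED (0.22, interval -0.14 to 0.59).

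Apaf1, the core of the apoptosome, rose at 4 h in both cell types. The level of its NM_009684 probe was 2.66, 2.48 and 2.67 in ES, 2.73, 2.60 and 2.51 in ESRE, and 3.33, 3.02 and 3.25 in ESRL. In ED it was 1.94, 1.90 and 1.89, in EDRL 3.08, 2.82 and 2.80, and in EDRE 2.02 on the 1 array whose spot was not an outlier. At 4 h the irradiated arrays of each cell type lay above all unirradiated arrays of that type. So did those of 10.4% of all probes measured on every array in ES cells and of 14.8% in ED cells. The second probe, NM_001042558, had means of 2.57 ± 0.12 in ES and 3.12 ± 0.17 in ESRL, and of 1.80 ± 0.17 in ED and 2.92 ± 0.14 in EDRL (SD, n = 3). The rise in EDRL against ED was 0.99 (SE 0.14, adjusted p 0.00179) for the NM_009684 probe and 1.12 (SE 0.15, adjusted p 0.00109) for the other. In ESRL against ES it was 0.60 (SE 0.14, adjusted p 0.0237) and 0.55 (SE 0.15, adjusted p 0.0443). The 4 h arrays also differed from the 15 min arrays, by 0.59 and 0.75 in ES cells (adjusted p 0.0291 and 0.0115) and by 0.88 and 0.85 in ED cells (adjusted p 0.0177 and 0.0254), the latter against the 1 EDRE array kept, whose spread is taken from the other groups. Without that array, EDRE replicate 1, Apaf1 had no EDRE value and could not be tested in this comparison. Of the genes tested, 1 of 8 was called in ESRL against ESRE, Apaf1 (6.03% of all probes called, 1.42% as higher), and 2 of 7 in EDRL against EDRE, Apaf1 and Perp (11.2% of all probes, 4.85% as higher). The difference between the cell types at 4 h was 0.39 (interval -0.05 to 0.84) and 0.58 (interval 0.10 to 1.05), with adjusted p of 0.398 and 0.236. With slide as a random block the rise in EDRL was 1.07 with an adjusted p of 0.347. The call in ESRL against ES was lost when any array of ES, or replicate 1 or 3 of ESRL, was left out, with an adjusted p between 0.0573 and 0.112, with normexp background correction (0.0855), with outlier spots kept (0.0554) and with slide as a random block (0.709). With only the groups compared and with the methods' t-test it was lost too, as were the calls of Apaf1 against the 15 min arrays in both cell types.

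Casp9, the caspase that the apoptosome activates, did not pass the test after IR in either cell type. Its level was between 1.79 and 2.01 in ES, between 1.67 and 1.93 in ESRE, and 2.28, 1.51 and 1.67 in ESRL. In ED it was 1.03, 1.51 and 1.49, in EDRL 2.10, 1.62 and 1.77, and in EDRE 1.52 on the 1 array without an outlier spot. The EDRL arrays lay above the ED arrays, as did those of 14.8% of all probes measured on every array, with a difference of 0.48 (interval 0.01 to 0.96, adjusted p 0.343), and the difference in ESRL against ES was -0.10 (interval -0.58 to 0.38).

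Pidd1, the PIDDosome scaffold, rose in ED cells at 4 h. Its level was -1.43, -1.49 and -1.73 in ED, -0.16, -0.18 and -0.30 in EDRL, and -1.19 and -0.68 on the 2 EDRE arrays without an outlier spot. The EDRL values lay close together and above all ED and EDRE values. Against ED, so did those of 14.8% of all probes measured on every array. The rise in EDRL against ED was 1.34 (SE 0.25, adjusted p 0.0148), or 2.53-fold. The direction was the same without any 1 array of ED or EDRL, but the adjusted p was then between 0.0447 and 0.0705, under the threshold only without replicate 1 of ED, and with slide as a random block it was 0.116. The difference in EDRE against ED was 0.62 (interval 0.01 to 1.23, adjusted p 0.184). In ES cells the level was -1.37 on the 1 ES array without an outlier spot (-0.97 and -1.03 on the others), between -1.29 and -1.16 in ESRE, and -1.39, -0.52 and -0.31 in ESRL. The ESRL arrays were thus split, and the difference from ES was 0.63 (interval -0.16 to 1.41, adjusted p 0.314), 0.95 (adjusted p 0.0468) without replicate 1 of ESRL, and 0.38 (adjusted p 0.396) with the 2 outlier spots of ES kept.

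Casp8, the caspase of death receptors, was called in no comparison after IR. The level of its NM_009812 probe was -6.11, -6.50 and -6.73 in ES and -3.65, -3.93 and -4.05 in ED, and that of the NM_001080126 probe was -6.41, -5.95 and -6.54 in ES and -3.63, -3.59 and -3.83 in ED. Both probes lay near the background in ES cells, with signals of 27.5 to 52.4 in ES, where the lowest signals well above background were 11.7 to 19.8. The first probe was well above background on 3, 2 and 2 arrays of ES, ESRE and ESRL, and the second on 3, 1 and 3. Within the ES groups single arrays stood apart, at -4.19 on replicate 1 of ESRE for the first probe and at -3.0 on replicate 1 of ESRL for the second, and the other probe did not share these values. In the ED groups both probes stayed between -4.52 and -3.19. The difference in EDRL against ED was -0.36 (interval -1.56 to 0.84) and -0.41 (interval -1.90 to 1.08). Over the 18 arrays the 2 probes had a Pearson r of 0.595, and those of Apaf1 had one of 0.875.

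Bax, the pore-forming protein, was the gene called at 15 min in ED cells, and its values were uneven. The level was 2.80, 3.06 and 3.43 in ED and 3.45, 4.48 and 4.78 in EDRE, where the 2 high values are those of replicates 2 and 3, the arrays that stand apart. It was 4.07, 3.91 and 3.91 in EDRL. The EDRE arrays lay above the ED arrays, as did those of 8.29% of all probes measured on every array of this comparison. The difference in EDRE against ED was 1.14 (SE 0.32, adjusted p 0.0479). With replicates 2 and 3 of EDRE left out, the difference was 0.35 with an adjusted p of 0.778. It was 0.99 to 1.53 with single arrays of ED left out and without replicate 1 or 2 of EDRE, and 0.87 (adjusted p 0.2) without replicate 3, and of these left-out arrays the call held only without replicate 1 of EDRE (adjusted p 8.10e-04). At 4 h the EDRL arrays also lay above the ED arrays, as did those of 14.8% of all probes measured on every array. The difference was 0.86 (interval 0.17 to 1.56, adjusted p 0.225). In ES cells Bax was 3.98, 3.91 and 4.10 in ES, 3.79, 4.06 and 4.06 in ESRE, and 5.01, 3.84 and 4.00 in ESRL, where the high value is on replicate 1. The difference in ESRL against ES was 0.29 (interval -0.41 to 0.99), and -0.08 without that array.

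Pmaip1, which encodes NOXA, was bright in ES cells and near the background in ED cells. Its level was 2.52, 2.43 and 2.69 in ES, of which the last 2 are outlier spots, 2.69, 2.89 and 2.85 in ESRE, and 3.16, 3.04 and 3.1 in ESRL. The ESRL arrays lay above all ES arrays, as did those of 10.4% of all probes measured on every array. With outlier spots kept, the SD was 0.13 in ES, 0.11 in ESRE and 0.06 in ESRL. The difference in ESRL against ES was 0.57 (interval -0.07 to 1.22, adjusted p 0.254), fitted to the 1 ES array whose spot was kept, 0.55 (adjusted p 0.128) with outlier spots kept, and 0.86 (adjusted p 0.0294) in the authors' table, the 1 alternative in which it passed. In ED, EDRE and EDRL the probe was well above background on 0, 1 and 2 of the 3 arrays, with signals of 6.40 to 7.17 in ED, 7.41 to 18.2 in EDRE and 19.3 to 26.3 in EDRL, so no change after IR was tested in ED cells. In the interaction at 15 min, 1 of 8 genes was called, Pmaip1 (2% of all probes called, 1.18% in this direction), with a value of 1.76 (SE 0.36, adjusted p 0.0326). The probe entered that test through the ES groups, its ED and EDRE values lie at the background and 1 ES array was kept, so this value is no measured difference between the cell types.

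Bbc3, which encodes PUMA, was not well above background on any array of ES, ESRE or ED, and was tested in no comparison. Its signals were 2.49 to 4.49 in ES, 3.61 to 7.87 in ESRE and 4.15 to 5.36 in ED. It was well above background on replicate 3 of ESRL, at a signal of 31.7, against 5.92 and 4.17 on the others, and on replicate 1 of EDRE, at 73.0, against 9.11 (also the signal of Pmaip1 on that array) and 6.42. In EDRL it was so on replicates 1 and 3, at 100 and 118, but the signal was 4.49 on replicate 2. Bbc3 was thus well above background on 1 or 2 arrays of each of these groups. As levels relative to the 75th percentile, the EDRL and ED values overlapped. The EDRE levels lay above all ED levels, as did those of 8.29% of all probes measured on every array. That percentile was low on EDRE replicates 2 and 3 (875 and 1155). The ESRL levels lay above all ES levels, as did those of 10.4% of all probes, but only just (-9.60 against -9.62), and the ESRL and ES signals overlapped. Most of these values were not well above background.

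Aen, the nuclease gene, was measured on every array without outlier spots and moved little. Its level lay between -2.51 and -2.37 in ES, between -2.72 and -2.53 in ESRE and between -2.99 and -2.64 in ESRL. It lay between -2.68 and -2.58 in ED and between -2.71 and -2.53 in EDRL. In EDRE, the group with the widest spread (SD 0.34), it was -3.06, -2.40 and -2.61. The change in EDRL against ED was 0.03 (interval -0.32 to 0.37), whose upper end lies below the rises of Perp, Pidd1 and Apaf1 in that comparison. In ESRL against ES it was -0.36 (interval -0.71 to -0.01, adjusted p 0.187), and all ESRL arrays lay below all ES arrays, as did those of 23.7% of all probes measured on every array.

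**Figure D2:**
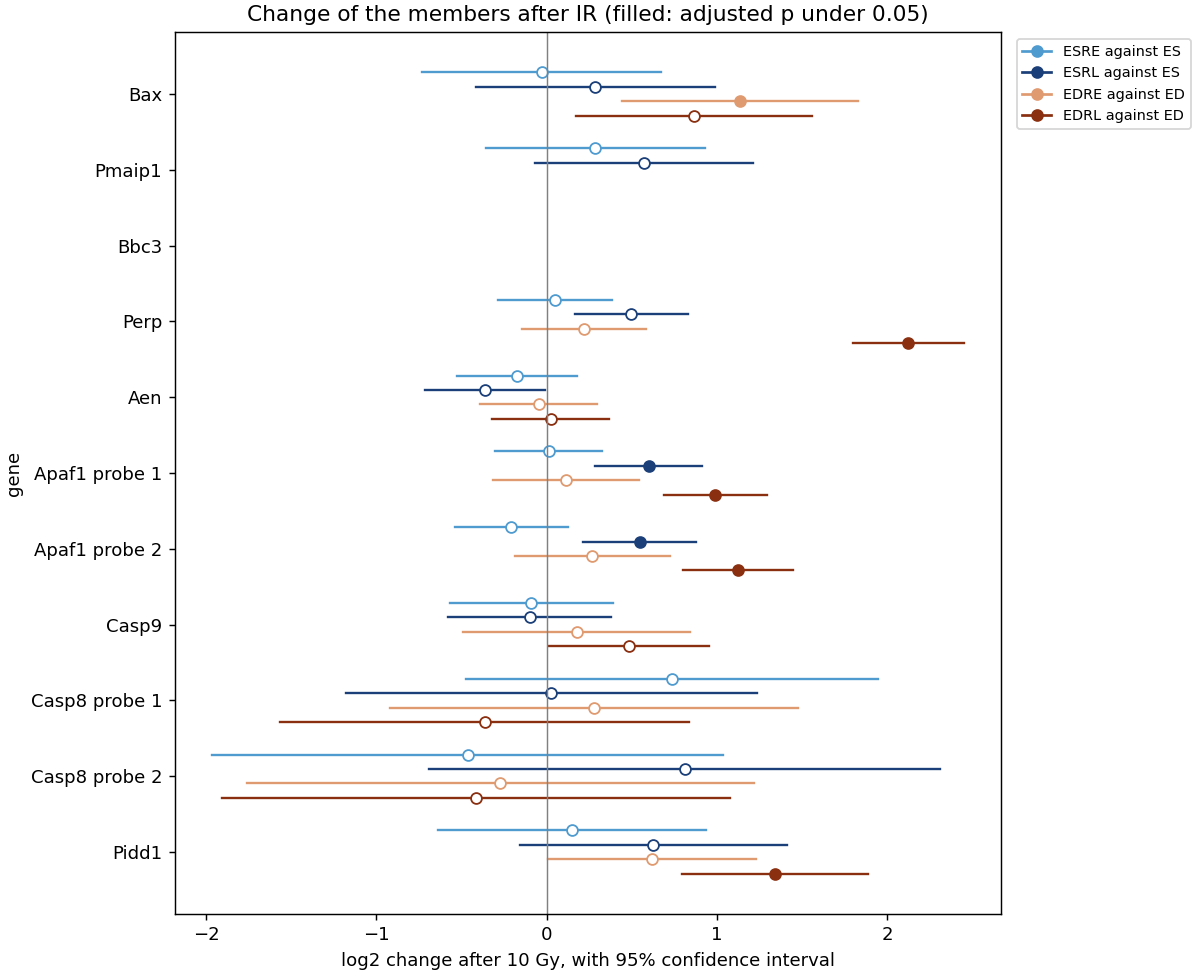
Change of each tested probe after 10 Gy IR (horizontal axis, log2, with 95% confidence intervals from the fit of all 18 arrays) in the 4 comparisons with unirradiated cells. Filled points passed an adjusted p of 0.05. At 4 h in ED cells Perp, both Apaf1 probes and Pidd1 are filled, with Perp at 2.12, while in ES cells only the Apaf1 probes are, and Bbc3 was not tested.

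Before IR the genes differed widely between ED and ES cells, as did most of the transcriptome. No slide held both ES and ED arrays, so scan time and cell type cannot be told apart in this comparison. Of the 8 genes tested, 6 were called (51.9% of all probes), 5 of them lower in ED (32.1% of all probes) and Casp8 higher (19.8%), so that the share called is not far from that of all probes. Perp was lower in ED (-4.66, adjusted p 1.56e-11), by 25.4-fold. Pmaip1, not well above background on any ED array, was at least 1016-fold lower in ED than in ES with outlier spots kept. Without them it was at least 998-fold lower. The probe entered the test through ES, where 1 array was kept, so its call rests on that array. With detection asked in both groups Pmaip1 was not tested, and 5 genes were called. Casp8 was higher in ED by 2.57 and 2.62 for its probes (adjusted p 0.00137 and 0.0055), or 5.92- and 6.16-fold, over ES signals that lay near the background. Bax (-0.90, adjusted p 0.0325), Apaf1 (-0.69 and -0.77, adjusted p 0.00127 and 9.22e-04) and Casp9 (-0.57, adjusted p 0.0464) were lower, but their size depended on the scaling. The median of all probes tested was -0.19, and 0.46 when each array was set relative to its median signal, and with that scaling Bax was at -0.25, Apaf1 at -0.13 and Casp9 at 0.07, with adjusted p of 0.547 to 0.839. Without any 1 array of ES or ED the adjusted p was between 0.0543 and 0.178 for Casp9, and it was over the threshold for Bax too (0.0583 to 0.116) except without replicate 3 of ED (0.0277). With slide as a random block it was 0.0977 for Apaf1, 0.281 for Bax and 0.398 for Casp9, while Casp8, by its NM_001080126 probe (0.0261, against 0.0741 for the other), Pmaip1 and Perp (4.23e-08) stayed called. Pidd1 (-0.19, interval -0.97 to 0.60) and Aen (-0.19, interval -0.55 to 0.16) were not called, and Aen was higher in ED by 0.45 (adjusted p 0.0115) with the median scaling. These differences move together with the stem cell, fibroblast, trophoblast and mesoderm marker sums, whose part in them was not tested.

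Among 25 other p53 targets, all on the array, such as the arrest gene Cdkn1a, the p53 inhibitor Mdm2 and the death receptor genes Fas and Tnfrsf10b, those called against unirradiated cells were all higher. In EDRL against ED, 8 of 22 tested were higher (1.74% of all probes) and 0 lower, with a median change of 0.64, beside -0.09 over all probes tested. They were led by Fas (2.68, adjusted p 1.16e-05) and Trp53inp1 (2.22, adjusted p 1.60e-04), a p53 cofactor. In ESRL against ES, 5 of 22 were higher (1.75% of all probes) and 0 lower, with a median of 0.18, beside -0.16 over all probes tested. The 5 were Trp53inp1 (1.15, adjusted p 0.00802), Fas (1.08, adjusted p 0.00726), Mdm2, Zmat3 and Eda2r. At 15 min, 2 of 22 were higher in EDRE (3.76% of all probes), Btg2 (1.87, adjusted p 0.0267) and Trp53inp1 (1.17, adjusted p 0.0196). In ESRE 0 of 21 were called (0.563% of all probes) and 3 had an unadjusted p under 0.05. In the interaction at 4 h, 1 of 20 was called (0.853% of all probes in this direction), Fas, whose change was larger in ED than in ES cells by 1.96 (adjusted p 0.00835), beside the 1.62 of Perp. Before IR, 3 of 23 were higher (19.8% of all probes) and 10 lower (32.1%) in ED.

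Genes whose products act together with these 9 were called after IR at shares not far from those of all probes given above. Among 13 partners of the apoptosome and the mitochondrial route (Bak1, Cycs, Diablo and others), 0 of 12 tested were called in EDRL against ED, with 2 at an unadjusted p under 0.05, and 0 of 12 in EDRE against ED, with 2. In ESRL against ES, 1 of 10 was called, Diablo, an antagonist of caspase inhibitors, which was lower (-1.68, adjusted p 0.0201) and well above background on 2 of the 3 ESRL arrays, and in ESRE against ES 0 of 11, with 1 at an unadjusted p under 0.05. Before IR, 4 of 10 were higher in ED (19.8% of all probes), led by the survival gene Bcl2 (2.78, adjusted p 1.02e-07), and 3 were lower (32.1% of all probes), led by the BH3-only gene Bcl2l11 (-1.62, adjusted p 1.73e-06) and the survival gene Mcl1 (-1.5, adjusted p 1.25e-05). Of 7 partners of death receptors and the PIDDosome (Fadd, Cradd, Casp2 and others), 6 were called before IR, all of them higher in ED (19.8% of all probes), with a median of 1.32. The largest of these differences were those of Cflar, an inhibitor of caspase 8 (4.44, adjusted p 1.73e-10, and 0.88 for its other probe), and of the receptor gene Tnfrsf1a (2.63, adjusted p 2.27e-04). After IR, 0 of the 7 were called in each of the 4 comparisons with unirradiated cells, with 1 at an unadjusted p under 0.05 in ESRE and in ESRL and 0 in EDRE and EDRL. Among the 4 regulators, Trp73, a relative of p53, was higher in ESRL than in ES (2.12, adjusted p 4.95e-04), and Mdm4, a p53 inhibitor, was lower (-2.51, adjusted p 0.0389) but well above background on 1 of the 3 ESRL arrays. Trp73 was also called as higher in EDRL against ED, where the probe of smallest p was well above background on 0 of the 3 ED arrays. The regulator Trp53 itself was called in no comparison after IR, and before IR its 2 probes differed, at -1.29 (adjusted p 0.0164) and 0.48 (adjusted p 0.694) in ED against ES.

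**Figure D3:**
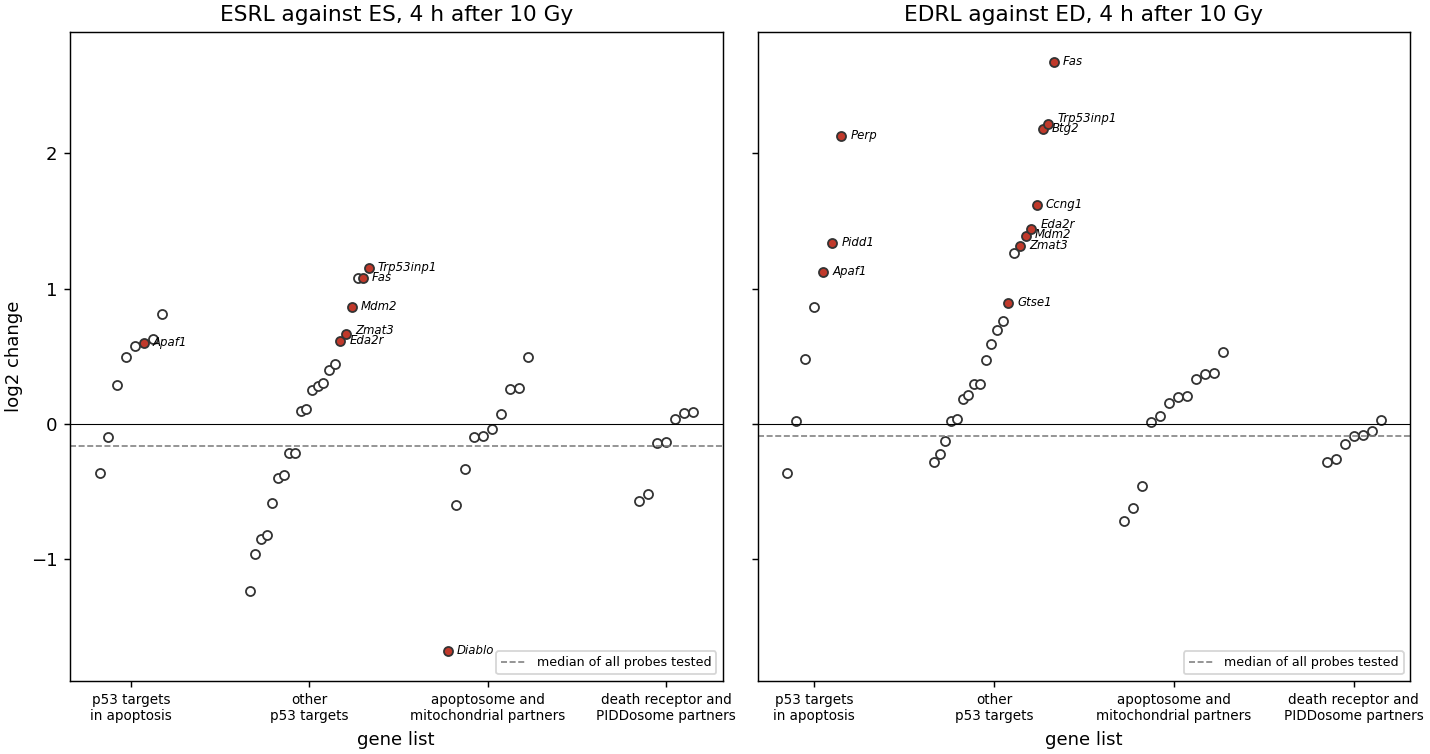
Change at 4 h after 10 Gy IR (vertical axis, log2) in ES cells (left) and ED cells (right) for the p53 targets in apoptosis and 3 other gene lists (horizontal axis, genes sorted by change within a list, each by its probe with the smallest p). Red points passed an adjusted p of 0.05, and the dashed line is the median of all probes tested. On the right, Perp, Pidd1 and Apaf1 stand among the called p53 targets, while no partner gene is called.

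**Figure D4:**
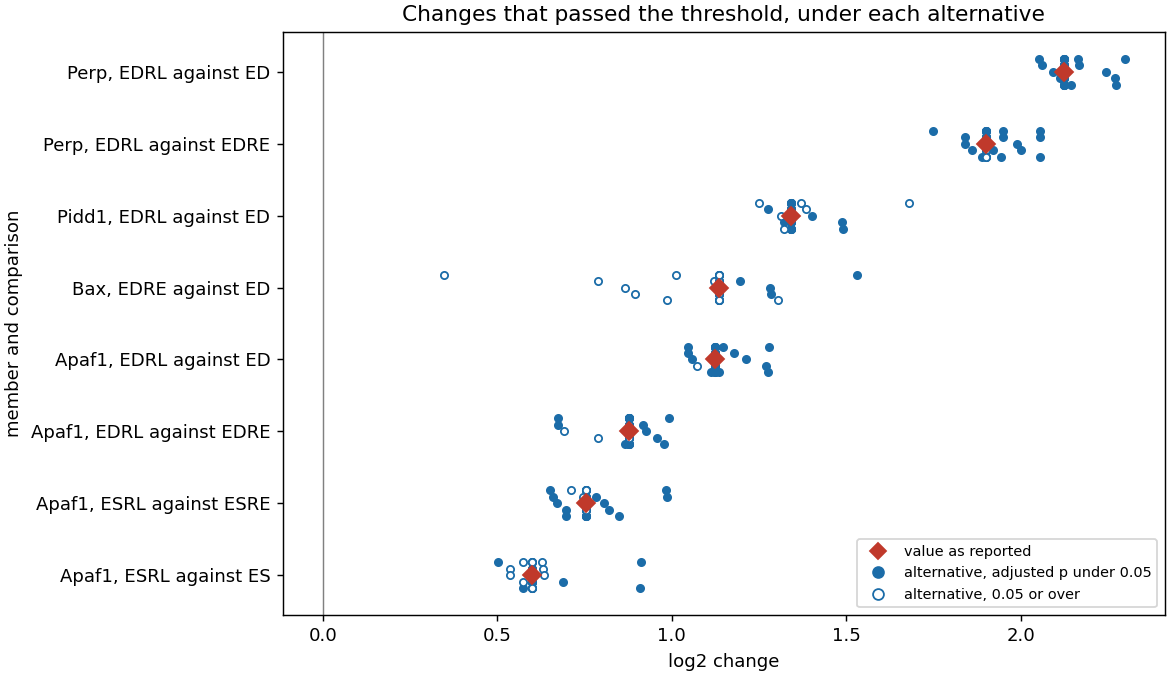
Changes of the 9 genes in irradiated cells that passed the threshold (diamonds, log2) with their values under each alternative processing and with each array left out (circles, filled where the adjusted p stayed under 0.05). Perp in EDRL against ED keeps all circles filled, while Bax in EDRE against ED reaches down to 0.35 and has mostly open circles.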

How the data were processed

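Total RNA of 18 samples was labelled with Cy3 and hybridized to Agilent one-color arrays, 1 per sample without pooling. The intensity values deposited by the authors are the processed signals of Feature Extraction (version 10.7.3.1 per the file headers, 9.1 in the submitters' notes), background-subtracted and not scaled between arrays. The authors also deposited a table of log2 values for 30133 probes, which equals the log2 signal with a floor of 5 minus 1 offset per array (99.81% to 99.83% of values within 0.01). It served as an alternative only, and how its offsets were chosen stays unknown (column medians 0.572 to 0.721).

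Of 39448 spots per array, 1417 control and 200 negative control spots were left out. Outlier spots (by the marks for uneven or deviating spots) were dropped, and spots of a probe were averaged after log2 signals were set relative to the 75th percentile. Probes were named through their accession in the RefSeq table (22216 of 37246 probes). A probe was tested where 1 or more of the groups compared had it well above background on its 3 arrays. The 6 groups entered 1 linear model of all 18 arrays (limma 3.58.1, R 4.3.3), with Benjamini-Hochberg adjustment over all probes tested, and p-values are limma's moderated ones. In these fits a spot left out leaves that array without a value for the probe. Where a probe was not well above background in a whole group, the bound is the mean of the bright group over, per array of the other, the lowest signal well above background. The number of arrays limits the precision. Slides were inferred from scan times. The fits were tested on simulated data.

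The 9 genes and all gene lists were chosen with earlier results of these data known. The text names all probes of the 9 genes, for each other list at most the 2 largest rises and falls among called genes of a comparison (a gene by its probe with the smallest p, or all where a count is 5 or fewer), and for each member probe the 1 gene of most similar pattern. A gene that this rule would also name is not reported here. The marker lists of endoderm, mesoderm, neural and blood cells were summed as well. Endoderm summed to between -0.21 and 1.51, neural to between 2.02 and 3.14, and blood (2 of 3 markers on the array) to between -4.55 and -2.07 over all groups. Hba-a1 was detected on all arrays and Ptprc in no group on all 3 arrays. The alternatives were normexp background correction (offset 50), median scaling, quantile normalization, outlier spots kept, other detection filters, slide as a block, the replicate number as a block, only the groups compared, the arrays that stand apart left out, the authors' table, the methods' t-test, a log2 change over 1 as well, the mean over probes, and each array left out.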

Additional observations from a re-analysis of the deposited data

Results flagged for a closer look

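The test of the difference in change after 10 Gy between the cell types, in the limma fit, passed the threshold for 2 of the 9 genes, of which 1, Perp, was measured on both sides. At 4 h the change of Perp exceeded in ED cells that in ES cells by 1.625 in log2 (adjusted p 0.00343), with a change of 2.12 in ED and 0.50 in ES cells. At 15 min the fitted value for Pmaip1 was 1.7567 (adjusted p 0.0326), which is no measured difference between the cell types. Its ED side rests on signals that were not well above background on any ED array and on 2 of the 3 EDRE arrays, and its ES side on 1 ES array. It was 1.46 (adjusted p 0.0561) with replicates 2 and 3 of EDRE left out.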

How the results depend on the processing

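The numbers of the 9 genes called depended on the processing in most comparisons. In ED against ES, 6 genes were called as reported, 3 with slide as a random block, 3 where a log2 change over 1 was asked as well, and 3 to 6 with each array left out in turn. The count was 4 with median scaling or the authors' table and 7 with the methods' t-test. The ED against ES difference of Aen turned to 0.4494 with median scaling (adjusted p 0.0115) and to 0.4542 with the authors' table (adjusted p 0.0224), and that of Casp9 to 0.0728 (adjusted p 0.839) and 0.0776 (adjusted p 0.828). In ESRE against ES, 0 genes were called under each alternative and with each array left out. In ESRL against ES, 1 was called as reported, 0 with normexp, with outlier spots kept, with slide as a random block, with only the groups compared, with the methods' t-test and with a log2 change over 1, 2 with median scaling or without EDRE replicates 2 and 3, 3 with the authors' table, and 0 to 2 with each array left out. In EDRE against ED, the 1 call became 2 with median scaling and the authors' table, 0 with quantile normalization, slide as a random block, only the groups compared, EDRE replicates 2 and 3 left out and the methods' t-test, and 0 to 2 with each array left out, and with no filter on dim probes the 1 call was of Pmaip1 in place of Bax. Few probes of the whole array were called there either, 2 of 24490 with slide as a random block, 0 of 24368 with only the groups compared and 3 of 24368 with the t-test. In EDRL against ED, the 3 calls became 1, Perp, with slide as a random block, and 2 to 3 with each array left out. They became 4 with no filter on dim probes, where Pmaip1 was added, and 4 with only the groups compared, where Bax was added. In ESRL against ESRE, the 1 call became 2 with median scaling, slide as a random block or as a fixed effect, the authors' table, or EDRE replicates 2 and 3 left out, 0 with only the groups compared, the methods' t-test or a log2 change over 1, and 0 to 2 with each array left out. In EDRL against EDRE, the 2 calls became 1 with median scaling or a log2 change over 1, 0 with only the groups compared and the methods' t-test, and 1 to 3 with each array left out. They became 3 with normexp, outlier spots kept, slide as a fixed effect or the authors' table. In the interaction at 15 min, the 1 call became 0 with normexp, quantile normalization, detection in all groups, slide as a random block, only the groups compared or EDRE replicates 2 and 3 left out, and 0 to 2 with each array left out. In the interaction at 4 h, the 1 call became 2 with outlier spots kept, only the groups compared or EDRE replicates 2 and 3 left out, 0 with slide as a random block, and 1 to 2 with each array left out. The causes were not tested.

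Same-numbered samples did not deviate together (median r -0.0091 over 45 pairs, 4 of them over 0.1), and with a replicate block 0 genes were called in EDRE against ED and 0 in the interaction at 15 min, while the other counts stayed within 1.5 times. The rise of Perp in EDRL against ED was between 2.05 and 2.30 and past the threshold under each of 13 alternatives and with each of the 18 arrays left out. The methods' t-test was not run for the interactions, and slide as a fixed effect could be fitted only for 4 h against 15 min. Bbc3 and, in ED cells, Pmaip1 lay too near the background for a test.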

Other observations

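Over the 18 arrays, the gene whose pattern was most like that of Perp was Mctp2 (Pearson r 0.995 on the log2 levels), and for Pmaip1 it was Nudt11 (0.998). For the NM_009684 probe of Apaf1 it was Tnfrsf18 (0.965), and for the other the transcript uc009gsa (0.956). Bax was most like Tmem256 (0.934), and Casp9 was most like Bax itself (0.886). The pair of Casp8 probes was most like Meis2 (0.949) and Ap1s1 (0.963), Pidd1 was most like uc009kld (0.920), Aen like AK011739 (0.90) and Bbc3 like Apol11b (0.741). These values are descriptions without a test, with outlier spots kept, chosen as the highest of 30790 probes, and the arrays share the large difference between ES and ED cells. Bax and Casp9 had their highest levels on the arrays of low percentile. These were EDRE replicates 2 and 3 (4.48 and 4.78 for Bax, 2.14 and 2.30 for Casp9, the latter outlier spots) and ESRL replicate 1 (5.01 and 2.28). Perp, lower in ED cells, had an r of 0.734 with the NM_009684 probe of Apaf1 and of -0.849 with the NM_009812 probe of Casp8.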
